A study of Mus musculus with 8 samples.

Results

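SERPINE2, PLAT, PLAU and PLAUR encode the core of the plasminogen activation system that was measured in primary mouse astrocytes. The genes were chosen by symbol, as 2 proteases that activate plasminogen, the cell-surface receptor of one of them and a serpin that inhibits both. Earlier results of these data were known when they were chosen. All 4 were present among the 13937 genes of the count table, and all 4 were among the 13509 genes that held enough counts to be tested. The data are bulk RNA sequencing of astrocytes from the brains of C57BL/6 pups at postnatal day 1, either wild type (WT) or RGC-32 knock-out (RGC-32 KO). RGC-32, encoded by RGCC, is a regulator of the cell cycle and of TGF-β signalling. Cells of each genotype were left untreated (control) or were treated for 24 h with TGF-β at 10 ng/ml, and all cells were deprived of serum overnight beforehand. The cultures were made from brains freed of meninges and were shaken to remove oligodendrocyte precursors and neurons, so they are enriched for astrocytes and not sorted. The comparisons ask how TGF-β changed the transcriptome of the cultures and whether the loss of RGC-32 altered that response. Each of the 4 groups held 2 libraries, described by the authors as biological replicates. Nothing states whether the replicates came from separate animals or litters, so the p-values measure only the spread between these libraries.

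Plasminogen is an inactive protease of plasma and tissue that becomes plasmin when it is cut by tissue-type plasminogen activator (tPA, the product of PLAT) or urokinase (uPA, the product of PLAU). PLAUR encodes uPAR, a lipid-anchored receptor that holds urokinase at the cell surface. SERPINE2 encodes protease nexin-1, also known as glia-derived nexin, a secreted serpin that traps thrombin, urokinase and tPA and that was first known for its effect on neurite outgrowth. Plasmin dissolves fibrin, cleaves matrix proteins and can release TGF-β from its latent complex, and in brain tPA also acts on synapses and on the blood-brain barrier.

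Library totals ran from 14920561 to 18956038 counts. The knocked-out gene was checked first. RGCC held 80 and 94 counts in WT control, 215 and 362 in WT TGF-β, 61 and 28 in untreated RGC-32 KO cells, and 64 and 26 in the RGC-32 KO cells given TGF-β. Every RGC-32 KO library was lower than every WT library, and none was at 0. With TGF-β, 9 of 10 genes of a list of textbook TGF-β targets were called higher in each genotype by the threshold given below. Of all tested genes, 7.72% were called higher in WT and 6.61% in RGC-32 KO. All 10 of 10 astrocyte markers, GFAP and AQP4 among them, were above 0 in every library, and their summed level ran from 4619.6 to 6005 CPM in control and from 3585 to 4716 CPM after TGF-β. CPM is the count divided by the TMM-normalized library total in units of 1e6. The 12 of 12 markers of microglia or macrophages were also above 0 in every library, with sums of 1224 to 1662 CPM. The 15 of 15 markers of meningeal fibroblasts summed to 3681 to 5712 CPM in control and to 6830.5 to 10308 CPM after TGF-β, and of them SLC6A13 was at 0 in 1 library and none of the others in any. The remaining sums were 368 to 619 CPM for 8 of 9 oligodendrocyte markers, 71.1 to 132 CPM for 6 of 8 endothelial markers, 208 to 317 CPM for 5 of 10 neuronal markers, 286 to 524 CPM for 8 of 10 ependymal markers and 283 to 384 CPM for 10 of 10 proliferation genes. In bulk RNA, fewer cells of a type and less RNA per cell cannot be told apart.

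The 4 genes differed widely in level. Per transcript length, in FPKM (fragments scaled to transcript length and to the library total), SERPINE2 was the highest with a mean of 248.7 over the 8 libraries and a range of 228 to 266, which placed it as number 187 of 18644 genes. PLAT followed with a mean FPKM of 66.2 and a range of 51.4 to 84.3. PLAUR had a mean FPKM of 12.1, from 7.16 to 16.7, and PLAU a mean FPKM of 10.8, from 7.82 to 14.3. The order of the lower pair depended on treatment. PLAU was above PLAUR in each control library and below it in each TGF-β library.

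**Figure D1:**
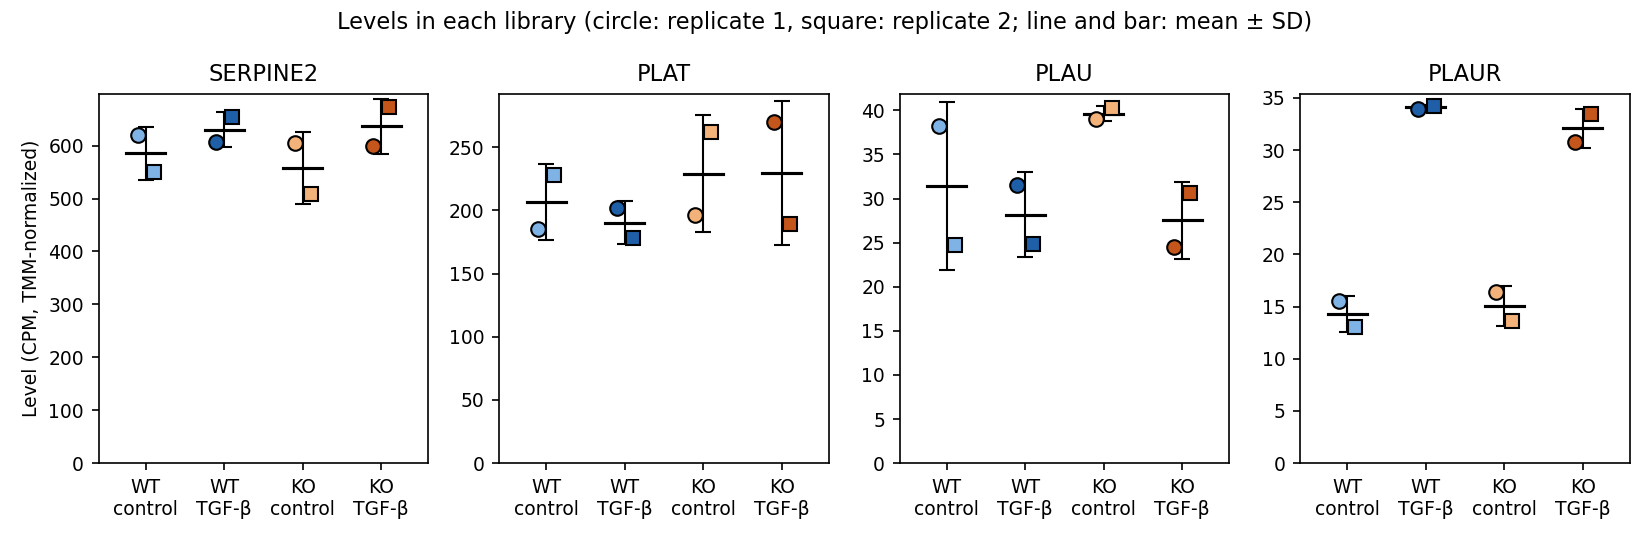
Level of each gene in CPM (y axis, from 0) in the 4 groups (x axis), with 1 point per library and the mean ± SD of the 2 libraries as a line and bar. PLAUR stands between 13.1 and 16.4 CPM in the control libraries and between 30.8 and 34.3 CPM after TGF-β, whereas control and TGF-β libraries of SERPINE2 and of PLAT overlap within each genotype.

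PLAUR, the urokinase receptor, was up-regulated with TGF-β in both genotypes and was the only gene of the set called in any comparison by edgeR. In WT it stood at 15.5 and 13.1 CPM in control and at 33.9 and 34.3 CPM after TGF-β. In RGC-32 KO it stood at 16.4 and 13.7 CPM in control and at 30.8 and 33.4 CPM after TGF-β. Every TGF-β library was thus above every control library. The group means were 14.3 ± 1.75 CPM in WT control, 34.1 ± 0.232 CPM in WT TGF-β, 15.03 ± 1.93 CPM in untreated RGC-32 KO cells, and 32.1 ± 1.89 CPM in those given TGF-β (SD, n = 2 each), and the counts behind them were 219 to 614 per library. The fold change was 2.39 in WT, a log2 fold change of 1.25 with a standard error of 0.11 and an adjusted p of 0.000320. It was 2.14 in RGC-32 KO, a log2 fold change of 1.10 with a standard error of 0.11 and an adjusted p of 0.000668. All such p-values are two-sided, were taken from the quasi-likelihood test of edgeR and carry the Benjamini-Hochberg adjustment over all 13509 genes. Genes with an adjusted p under 0.05 and a log2 fold change of 0.6 or more in either direction were called changed. The 95% intervals of the PLAUR response, 0.99 to 1.52 in WT and 0.83 to 1.36 in RGC-32 KO, overlapped, and leaving out any 1 library left the log2 fold change between 1.12 and 1.38 in WT and between 0.97 and 1.21 in RGC-32 KO. The summed fibroblast markers were also higher after TGF-β and the summed astrocyte markers lower. The fibroblast sum was mostly COL1A1, COL1A2 and COL3A1, and the other 12 markers summed to 843 and 916 CPM in WT control, 798 and 913 CPM in WT TGF-β, 775 and 725 CPM in untreated RGC-32 KO cells, and 783 and 758 CPM in those given TGF-β. That choice of genes was made after their values were seen. The median log2 fold change of the fibroblast list in WT was -0.14 and that in RGC-32 KO -0.08, with 8 of 14 tested markers below 0 in each genotype. Of 14 tested fibroblast markers, 5 rose and 2 fell in WT and 5 rose and 1 fell in RGC-32 KO. Of 10 astrocyte markers 2 were called lower in each genotype. The astrocyte list had median log2 fold changes of -0.39 (WT) and -0.40 (RGC-32 KO). By edgeR, 8 of the 10 had an unadjusted p under 0.05 in each genotype. The part of the fibroblast and astrocyte markers in the PLAUR response was not tested.

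PLAUR was the 1 of 4 genes called in each genotype, where 13.4% of all tested genes were called in WT and 11.5% in RGC-32 KO. PLAUR lies on chromosome 7 at 24462484-24475968 on the plus strand (ENSMUSG00000046223.10, GENCODE M21, GRCm38). The 300 bases around its start site and around that of SERPINE2 are shown because they allow the gene that responded to be set beside the one with the highest level that did not pass the threshold. Both are RefSeq windows of GRCm38.p6, from 250 bases before the start to 50 bases from it, printed 5′ to 3′ on the strand of the gene. Capitals mark matches to AP-1 (TGANTCA), to the SMAD-binding CAGA element (CAGAC) or to the GC box (GGGCGG), searched on both strands. The PLAUR window is chr7:24462233-24462532, plus strand, and the SERPINE2 window is chr1:79858616-79858915, minus strand.
PLAUR: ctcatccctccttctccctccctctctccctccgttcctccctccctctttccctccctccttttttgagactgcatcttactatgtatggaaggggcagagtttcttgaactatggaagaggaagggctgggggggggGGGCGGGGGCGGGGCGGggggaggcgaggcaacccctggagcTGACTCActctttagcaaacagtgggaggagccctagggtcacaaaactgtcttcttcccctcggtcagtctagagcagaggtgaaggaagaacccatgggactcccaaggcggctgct
SERPINE2: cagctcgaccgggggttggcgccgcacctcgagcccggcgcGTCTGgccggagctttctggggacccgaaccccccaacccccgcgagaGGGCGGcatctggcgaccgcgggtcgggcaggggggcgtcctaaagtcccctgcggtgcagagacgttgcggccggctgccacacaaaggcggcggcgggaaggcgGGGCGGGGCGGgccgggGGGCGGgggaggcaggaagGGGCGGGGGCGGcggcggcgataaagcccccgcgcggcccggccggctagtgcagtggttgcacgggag

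The PLAUR window held 1 AP-1 match, TGACTCA, beginning 69 bases before the start, and 3 GC boxes that touch or overlap one another, at 111, 105 and 100 bases before the start. It held no CAGAC. The SERPINE2 window held 6 GC boxes and 1 CAGAC match, on the opposite strand 209 bases before the start, and no AP-1 match. Neither window held GTCTAGAC, the palindromic SMAD element, or TATAAA. Among 32851 windows of the same length around annotated starts, 7.81% held the AP-1 motif, 49.6% CAGAC, 35.7% GGGCGG, 0.213% GTCTAGAC and 13.6% TATAAA. GC content was 59.3% in the PLAUR window and 77.7% in the SERPINE2 window, against a median of 52.7%. These matches describe the letters of the windows and say nothing about which factor bound there. The start of the SERPINE2 window lies inside the GENCODE gene, downstream of its 5′ end. The windows of the other members were not used here.

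PLAU, which encodes urokinase itself, did not pass the threshold in any comparison. It stood at 38.2 and 24.7 CPM in WT control, at 31.6 and 24.8 CPM in WT TGF-β, at 39.0 and 40.2 CPM in untreated RGC-32 KO cells, and at 24.5 and 30.6 CPM in the RGC-32 KO cells given TGF-β. Both RGC-32 KO control libraries were above all the others, and the remaining groups overlapped. The means were 31.4 ± 9.52, 28.2 ± 4.78, 39.6 ± 0.851 and 27.5 ± 4.33 CPM in that order (SD, n = 2 each), from 365 to 680 counts per library. The log2 fold change with TGF-β was -0.15 in WT with a standard error of 0.21 and an adjusted p of 0.608. In RGC-32 KO it was -0.53 with a standard error of 0.21, an unadjusted p of 0.0340 and an adjusted p of 0.0924, and its 95% interval ran from -1.0016 to -0.05. On the deposited FPKM values, with 1 added before taking log2, limma put the RGC-32 KO difference past the threshold, at -0.62 with an adjusted p of 0.0420, and with 0.1 added at -0.67 with an adjusted p of 0.0435. Without the first WT control library, the WT log2 fold change turned to 0.19. The interaction, which is the WT response minus the RGC-32 KO response, was 0.38 on the log2 scale for PLAU, with a 95% interval of -0.30 to 1.05 and an adjusted p of 1.00. In unstimulated cells PLAU was 0.34 lower on the log2 scale in WT than in RGC-32 KO, with a 95% interval of -0.81 to 0.13.

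The PLAU level varied beside the markers of microglia or macrophages, cells that are known to make urokinase. Their sum was 1662 and 1358 CPM in the WT control libraries, 1610.1 and 1224 CPM in WT TGF-β, 1609 and 1449 CPM in untreated RGC-32 KO cells, and 1249 and 1397 CPM in those given TGF-β. In 3 of 4 groups the library with more PLAU was also the library with the larger microglial sum, and in RGC-32 KO control it was the one with the smaller sum. The part of these cells in the PLAU values was not tested. PLAU lies on chromosome 14 at 20836660-20843385 on the plus strand (ENSMUSG00000021822.3), the same chromosome as RGCC, which lies at 79288756-79301645 on the minus strand.

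PLAT, which encodes tPA, did not pass the threshold in any comparison, and its replicates were far apart. The libraries stood at 185 and 228 CPM in WT control, 202 and 178 CPM in WT TGF-β, 196 and 262 CPM in untreated RGC-32 KO cells, and 269.9 and 189 CPM in the RGC-32 KO cells given TGF-β. All 4 groups overlapped. The means were 206 ± 29.9, 190.0 ± 17.0, 229 ± 46.4 and 229 ± 57.2 CPM in that order (SD, n = 2 each), from 2784 to 4423 counts per library. The log2 fold change with TGF-β was -0.12 in WT, with a 95% interval of -0.57 to 0.33 and an adjusted p of 0.670. It was 0.00 in RGC-32 KO, with a 95% interval of -0.45 to 0.45 and an adjusted p of 0.994. Averaged over treatments, PLAT was 0.21 lower on the log2 scale in WT than in RGC-32 KO, with a 95% interval of -0.53 to 0.11 and an adjusted p of 0.520. PLAT lies on chromosome 8 at 22757727-22782844 on the plus strand (ENSMUSG00000031538.6).

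SERPINE2, the nexin that inhibits both activators, had the highest level of the set, and no comparison of it passed the threshold. It stood at 620.4 and 549.7 CPM in WT control, 606 and 654 CPM in WT TGF-β, 605 and 509 CPM in untreated RGC-32 KO cells, and 600.1 and 673 CPM in the RGC-32 KO cells given TGF-β. Groups next to each other in the order of their means overlapped, while both WT TGF-β libraries were above both RGC-32 KO control libraries. The means were 585 ± 50.003, 630.1 ± 33.7, 557 ± 67.8 and 637 ± 51.7 CPM in that order (SD, n = 2 each), from 8606 to 10967 counts per library. The log2 fold change with TGF-β was 0.11 in WT, with a 95% interval of -0.14 to 0.36 and an adjusted p of 0.481. It was 0.19 in RGC-32 KO, with a 95% interval of -0.06 to 0.44 and an adjusted p of 0.219. Both intervals lie below the fold limit of 0.6. On the FPKM values with 1 added, the WT difference was -0.04. The 95% interval of the difference between genotypes, averaged over treatments, ran from -0.15 to 0.20 around 0.03. SERPINE2 lies on chromosome 1 at 79794197-79861180 on the minus strand (ENSMUSG00000026249.10).

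**Figure D2:**
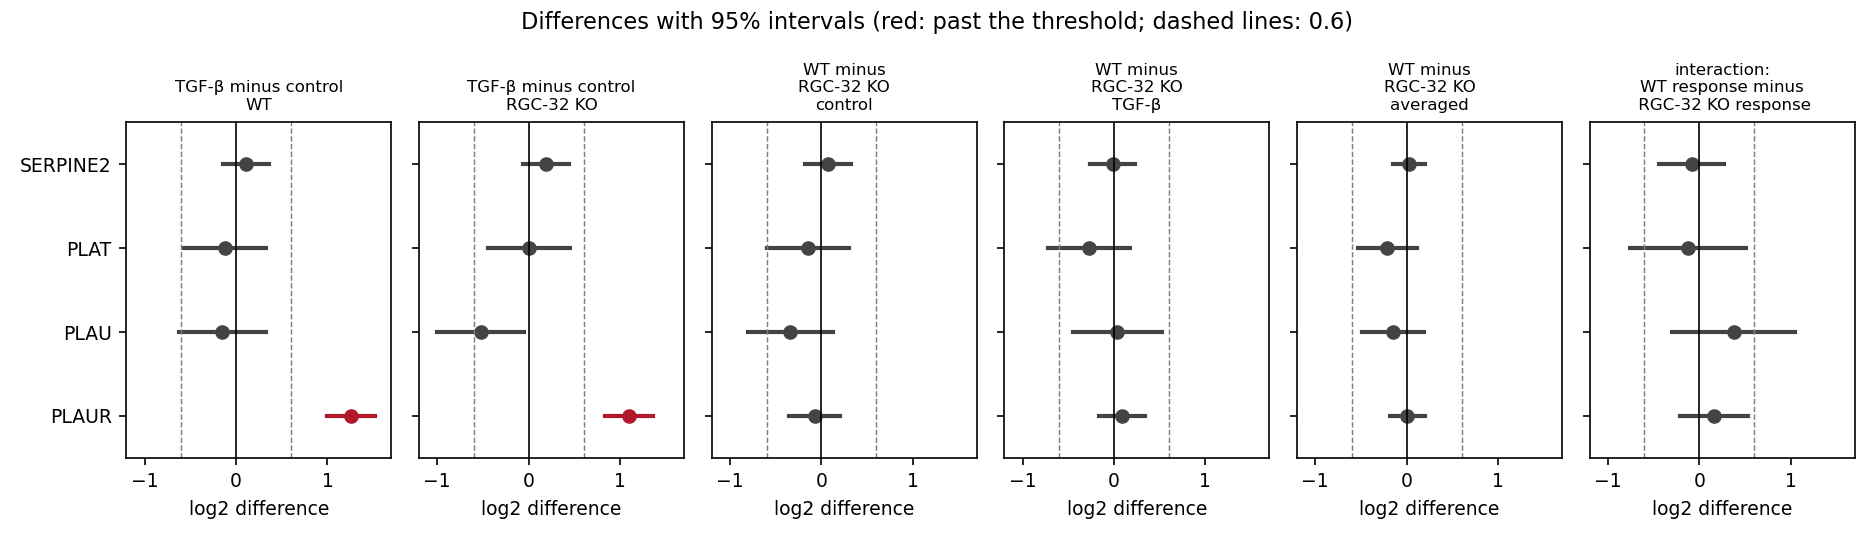
Log2 difference (x axis) of each gene (y axis) in the 6 comparisons, 1 panel each, with its 95% interval from edgeR; dashed lines mark a log2 difference of 0.6 in either direction. Only the 2 intervals of PLAUR with TGF-β, at 1.25 in WT and 1.10 in RGC-32 KO, lie wholly beyond the dashed lines.

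For none of the 4 genes did the genotype comparisons pass the threshold. By edgeR, 0 of 4 were called between WT and RGC-32 KO in control cells, where 0.037% of all genes were called, 0 of 4 after TGF-β, where 0.0444% were called, and 0 of 4 averaged over treatments, where 0.126% were called. In the interaction 0 of 4 were called, as were 0% of all genes. None of these differences reached an unadjusted p under 0.05, and DESeq2 and limma-voom called 0 of 4 as well. RGCC, the knocked-out gene, was not called by edgeR in these comparisons either. Its log2 difference (WT minus RGC-32 KO) was 0.97 in control (adjusted p 0.780) and 2.54 after TGF-β (adjusted p 0.133). Averaged over treatments it was 1.75 (adjusted p 0.0888). A gene that was not called may therefore still differ between genotypes. The 95% intervals limit how large a difference in the 4 genes could have been missed. They stayed within 0.6 in either direction for PLAUR and SERPINE2 but not for PLAT and PLAU. The interval of PLAT after TGF-β ran from -0.72 to 0.18, and that of its interaction from -0.76 to 0.51. For PLAU the interval in control ran from -0.81 to 0.13, and that of the interaction from -0.30 to 1.05. The averaged difference in PLAUR, 0.01 on the log2 scale, had a 95% interval of -0.18 to 0.20, and the interaction of PLAUR, 0.16, had one of -0.22 to 0.53. The marker sums of the cultures also differed between genotypes. The fibroblast sum was 4494 and 5712 CPM in WT control against 3903 and 3681 CPM in RGC-32 KO control, and 9109 and 10308 CPM in WT TGF-β against 6959 and 6830.5 CPM in the RGC-32 KO cells given TGF-β. Most of this sum was COL1A1, COL1A2 and COL3A1. The other 12 markers summed to 843 and 916 CPM in WT control against 775 and 725 CPM in RGC-32 KO control. After TGF-β they summed to 798 and 913 CPM in WT against 783 and 758 CPM in RGC-32 KO. The astrocyte sum was lower in both WT groups than in the RGC-32 KO groups given the same treatment. Their part in the genotype comparisons was not tested.

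Replicates of PLAT and SERPINE2 moved against each other. In control, the first library of each genotype was lower than the second in PLAT and higher in SERPINE2. After TGF-β the order was the reverse for both genes and both genotypes. Over the 8 libraries, which share the scaling and the groups, the log2 CPM values of PLAT and SERPINE2 had a Pearson r of -0.745. PLAUR and SERPINE2 had an r of 0.718, and the other 4 pairs of genes had r values between -0.484 and -0.102. The reversal of replicate order between treatments was not particular to this pair. Over all 13509 tested genes, differences between the first and second library of a group correlated at 0.491 (control) and 0.253 (TGF-β) between genotypes. Between treatments they correlated at -0.507 to -0.343. The r values of the gene pairs therefore also carry this wider pattern. They describe 8 libraries and were given no test.

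Ratios between the genes within a library do not depend on the scaling of that library. The ratio of PLAU to PLAUR, which sets the ligand against its receptor, separated the treatments. In FPKM it was 1.54 and 1.23 in WT control and 1.55 and 1.77 in RGC-32 KO control. After TGF-β it was 0.561 and 0.522 in WT and 0.501 and 0.654 in RGC-32 KO. The control and TGF-β libraries did not overlap. On counts the mean log2 ratio was 1.26 ± 0.26 in control and -0.26 ± 0.17 after TGF-β (SD, n = 4 each), a difference of -1.51. The exact two-sided permutation test gave p = 0.0286, the smallest that 4 against 4 libraries allow, and 0.171 after Benjamini-Hochberg adjustment over the 6 tests of ratios. The difference therefore failed the correction, which in this design 1 ratio on its own could not have passed. It restates the PLAUR response above and is not independent of it.

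The other ratios gave no difference beyond their spread. The log2 ratio of PLAU to PLAUR differed by -0.18 between WT and RGC-32 KO (exact permutation p = 0.657). That test pooled both treatments, so its spread held the TGF-β shift of -1.51. The SD was 0.83 for WT and 0.96 for RGC-32 KO (n = 4 each). The test therefore cannot decide whether genotype altered this ratio. Within each treatment the count ratios of the genotypes overlapped, whereas in FPKM those of the control libraries did not. The log2 ratio of PLAU to PLAT differed by -0.27 between TGF-β and control (exact permutation p = 0.457) and by 0.03 between WT and RGC-32 KO (exact permutation p = 0.914). The log2 ratio of SERPINE2 to the sum of PLAT and PLAU differed by 0.25 between TGF-β and control (exact permutation p = 0.286) and by 0.22 between WT and RGC-32 KO (exact permutation p = 0.343). In all 8 libraries the count of PLAT was above that of PLAU, and the FPKM of PLAT was 4.24 to 10.3 times that of PLAU. The FPKM of SERPINE2 was 2.32 to 4.25 times the sum of both activators.

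**Figure D3:**
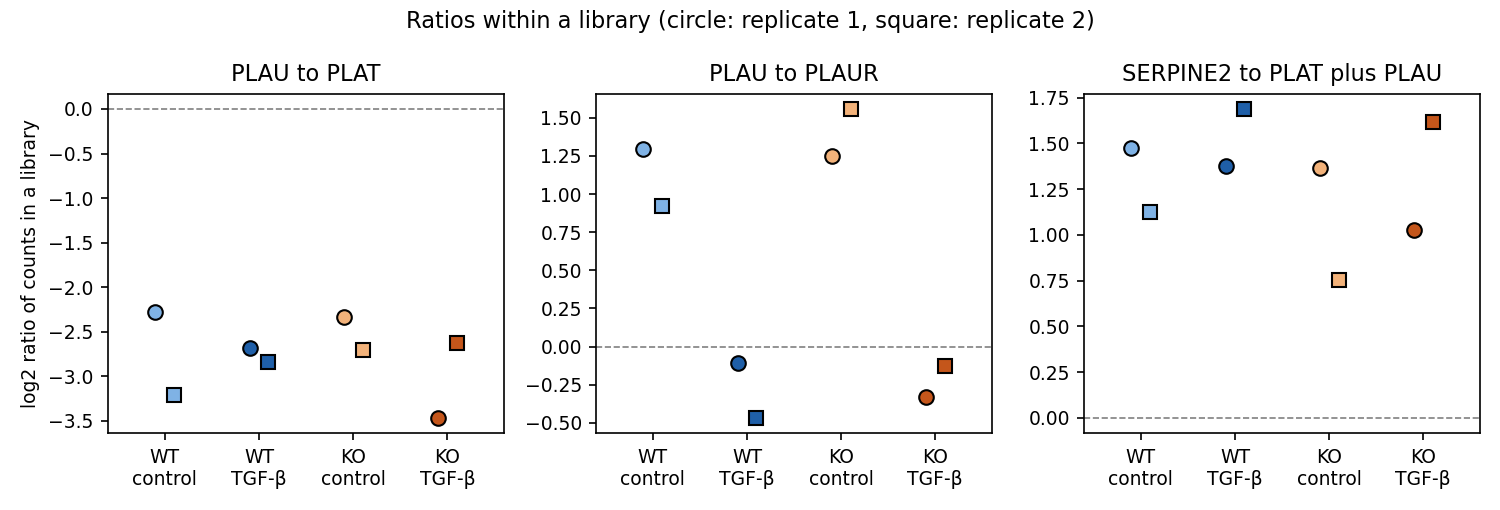
Log2 ratio of counts within each library (y axis) by group (x axis) for PLAU to PLAT, PLAU to PLAUR and SERPINE2 to PLAT plus PLAU, with 1 point per library and a dashed line at a ratio of 1 to 1. The ratio of PLAU to PLAUR is between 0.92 and 1.56 in the 4 control libraries and between -0.47 and -0.10 in the 4 TGF-β libraries.

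The other genes of the plasminogen system were read from 4 lists of 52 genes, chosen with earlier results of these data known. Of these, 39 were tested. With TGF-β, 12 rose and 4 fell in WT, so that 41.0% were called against 13.4% of all genes, and the median log2 fold change of the 39 genes was 0.28 against 0.00 for all genes. In RGC-32 KO 9 rose and 5 fell, which is 35.9% of the 39 against 11.5% of all genes, with a median of 0.05 against 0.00 for all genes. Of the other activators, ST14 and HPN were tested and neither was called. Between genotypes and in the interaction, edgeR called 0 of the 39, with 9 at an unadjusted p under 0.05 in control, 9 after TGF-β, 12 averaged over treatments and 6 in the interaction. These are 23.1%, 23.1%, 30.8% and 15.4% of the 39, against 6.84%, 11.7%, 15.03% and 2.82% of all genes. DESeq2 called 1 of them after TGF-β, LRP1, at a log2 difference of 0.61 with an adjusted p of 5.07e-07, for which edgeR gave 0.61 with an adjusted p of 0.0933.

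Among 9 tested inhibitors, 2 rose and 2 fell in WT, and 1 rose and 1 fell in RGC-32 KO. These are 44.4% and 22.2% of the list, against 13.4% and 11.5% of all genes. SERPIND1, which encodes heparin cofactor II, a thrombin inhibitor, fell from 141 and 163 counts to 37 and 31 in WT and from 145 and 165 to 32 and 23 in RGC-32 KO. Its log2 fold changes were -2.22 and -2.37.

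SERPINB2, which encodes plasminogen activator inhibitor 2, held 15 and 26 counts in WT control and 63 and 47 in WT TGF-β, a log2 fold change of 1.35 with an adjusted p of 0.00877. In RGC-32 KO it held 37 and 33 counts in control and 40 and 31 after TGF-β, a log2 fold change of 0.13 with an adjusted p of 0.745. The interaction of SERPINB2 was 1.22 on the log2 scale with an unadjusted p of 0.0150 and an adjusted p of 1.00, so the difference between the genotypes did not pass. On the FPKM values SERPINB2 was not called in WT either, at 0.29 with 1 added and an adjusted p of 0.0508. SERPING1, which encodes the C1 inhibitor, fell by 0.66 on the log2 scale in WT and was at -0.38 in RGC-32 KO, with an adjusted p of 0.0113 but a change under the fold limit.

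**Figure D4:**
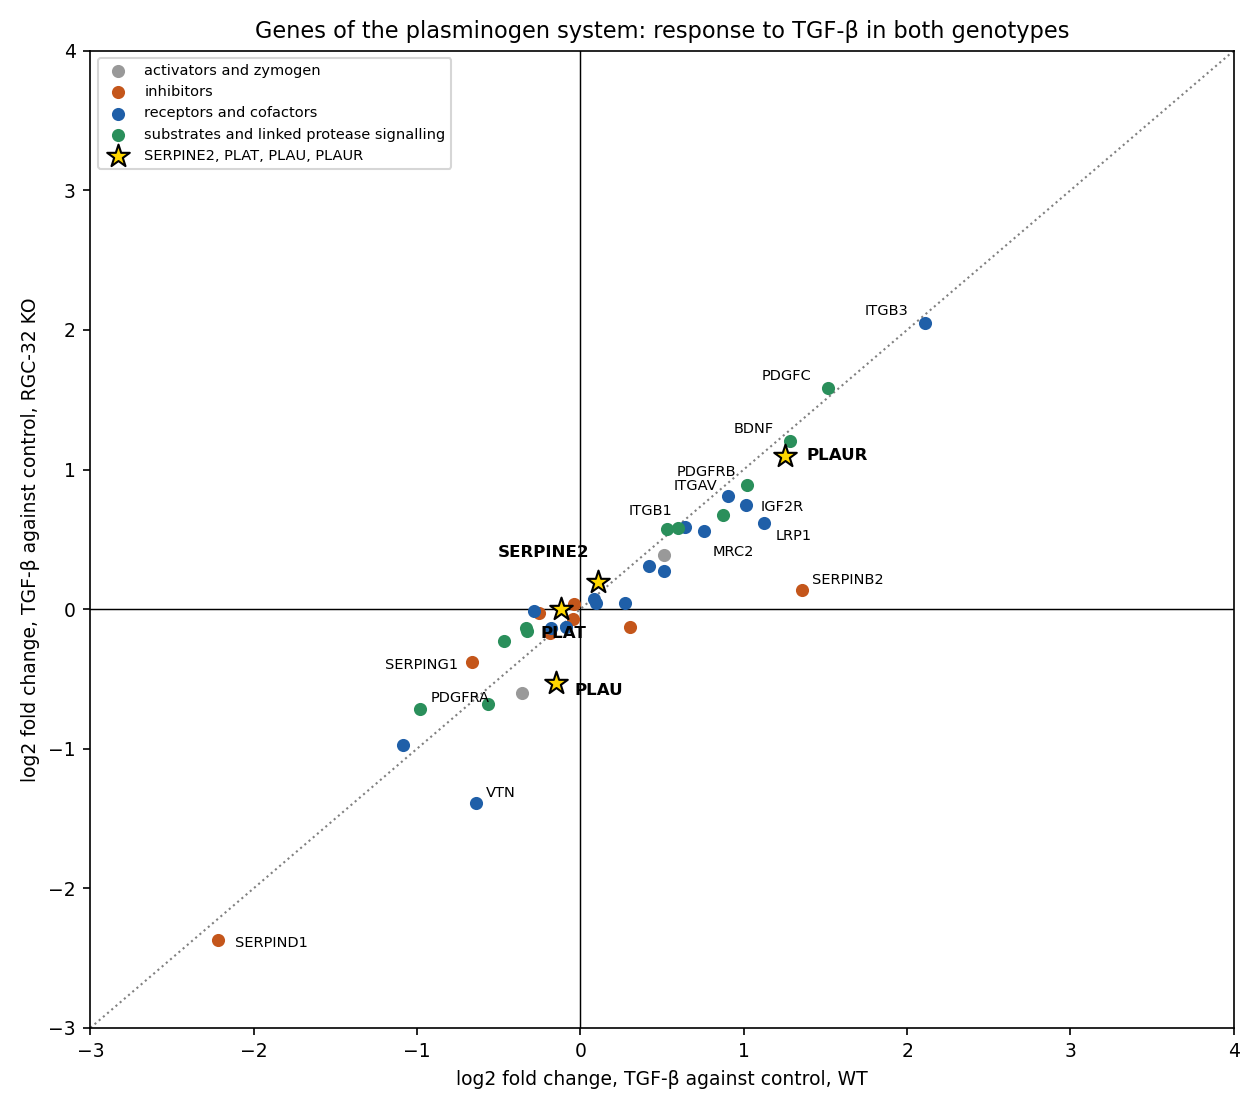
Log2 fold change with TGF-β in WT (x axis) and in RGC-32 KO (y axis) for 37 of the 39 tested genes of the 4 lists, coloured by role, and for the 4 genes of the set as stars; the dotted line marks equal change. PLAUR sits at 1.25 and 1.10, SERPIND1 lies at -2.22 and -2.37, SERPINB2 lies off it at 1.35 and 0.13, and SERPINE2 and PLAT lie near the origin.

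Of 17 tested receptors and cofactors, 7 rose and 1 fell in WT, and 5 rose and 2 fell in RGC-32 KO. These are 47.1% and 41.2% of the list, against 13.4% and 11.5% of all genes. ITGAV and ITGB3, the subunits of the vitronectin receptor with which uPAR associates, rose in both genotypes. ITGB3 went from 150 and 228 counts to 914 and 789 in WT and from 142 and 198 to 591 and 706 in RGC-32 KO, with log2 fold changes of 2.11 and 2.05. The log2 fold changes of ITGAV were 0.90 and 0.81. ITGB1, another integrin partner of uPAR, was at 0.64 in WT, where it was called, and at 0.59 in RGC-32 KO, just under the fold limit. Without the second WT TGF-β library ITGB1 was at 0.48, and without the first WT control library at 0.57, both no longer called, and it was also under the fold limit at 0.55 with upper quartile scaling and at 0.51 on FPKM values with 1 added. VTN, which encodes vitronectin, a matrix ligand of uPAR, fell in RGC-32 KO from 97 and 108 counts to 38 and 34, a log2 fold change of -1.39 with an adjusted p of 0.00354. In WT, VTN held 46 and 72 counts in control and 46 and 33 after TGF-β, at -0.64 with an adjusted p of 0.0655, and it was called at -0.88 without the first WT control library, at -0.73 with upper quartile scaling, at -0.64 with replicate numbers crossed between treatments as a block and at -0.85 on FPKM values with 0.1 added. The interaction of VTN was 0.75 with an adjusted p of 1.00.

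LRP1 encodes the endocytic receptor that clears tPA, urokinase and nexin complexes from the cell surface. It rose from 10075 and 11576 counts to 27123 and 22154 in WT, a log2 fold change of 1.12. In RGC-32 KO it went from 8879 and 11436 to 14231 and 14423 counts, a log2 fold change of 0.62 that was called by a narrow margin. The RGC-32 KO value was 0.48 without the first control library, 0.60 without the second TGF-β library, 0.53 with upper quartile scaling and 0.42 on FPKM values with 1 added, none of them called. The interaction of LRP1 was 0.50 with an unadjusted p of 0.00551 and an adjusted p of 1.00. IGF2R, a receptor that binds uPAR and plasminogen, was called at 1.02 in WT and at 0.74 in RGC-32 KO, where it was under the fold limit on FPKM values, at 0.55 with 1 added and 0.59 with 0.1 added. MRC2, which encodes Endo180, an endocytic partner of uPAR, was called in WT at 0.76 and not in RGC-32 KO at 0.56, and it was no longer called in WT without the second TGF-β library, at 0.47, or without the second control library, at 0.73. Without the first RGC-32 KO control library MRC2 was called in RGC-32 KO, at 0.74. THBD, which encodes thrombomodulin, fell in both genotypes, at -1.09 and -0.97, and was named after its values were seen.

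Of 11 tested substrates and linked signalling genes, 3 rose and 1 fell in WT, and 3 rose and 2 fell in RGC-32 KO. These are 36.4% and 45.5% of the list, against 13.4% and 11.5% of all genes. PDGFC encodes a growth factor that tPA and plasmin activate by cutting off its CUB domain. It rose from 980 and 1130 counts to 2840 and 3388 in WT and from 911 and 802 to 2307 and 2450 in RGC-32 KO, with log2 fold changes of 1.51 and 1.58. BDNF, whose precursor plasmin can cleave, rose by 1.29 and 1.20 on the log2 scale. PDGFRB rose by 1.02 and 0.89, whereas PDGFRA, the main receptor of the PDGFC product, fell by 0.98 and 0.71. PDGFRA and PDGFRB also stand in the list of fibroblast markers. MET, the receptor of hepatocyte growth factor, was called in RGC-32 KO at -0.68 and not in WT at -0.57, and was named after its values were seen.

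The genes whose log2 CPM followed each member most closely over the 8 libraries were ranked by Pearson r among 13072 genes. For PLAUR these were HERPUD1 (r = 0.998), MOGS (0.998) and NANS (0.996). For SERPINE2 they were MED6 (0.983), DACT2 (0.983) and COX15 (0.975). For PLAU they were MBP (0.972), CSF3R (0.964) and EVA1C (0.958). For PLAT they were RNF41 (0.951), SCAP (0.936) and ZFP251 (0.933). With 8 libraries and so many genes such values describe only the pattern of levels. Of these 12 genes, NANS was called with TGF-β in both genotypes, at 0.70 in WT and 0.61 in RGC-32 KO. MBP also stands in the list of oligodendrocyte markers, but the list as a set did not move as MBP did. With TGF-β, MBP shifted by -0.12 (WT) and -0.43 (RGC-32 KO) on the log2 scale. The 8 tested markers of that list had medians of 0.15 (WT) and 0.04 (RGC-32 KO).

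The nearest genes of the count table on each side gave the surroundings of each locus. Around PLAUR, SMG9, KCNN4, CADM4 and ZFP428 were not called in any comparison, and CADM4 begins 6.06 kb downstream. Around PLAT, AP3M2, which ends 4.51 kb beyond it, fell with TGF-β by 0.72 in WT and 0.66 in RGC-32 KO on the log2 scale, while IKBKB, POLB and KAT6A were not called. Around PLAU, CAMK2G, VCL and AP3M1 were not called, and GM30108 was not tested.

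Beside SERPINE2 lay a gene that differed between genotypes. WDFY1, an endosomal adaptor in Toll-like receptor signalling, lies 18.1 kb from SERPINE2, on the same strand. It held 394 and 354 counts in WT control, 509 and 400 in WT TGF-β, 1036 and 1279 in untreated RGC-32 KO cells, and 1213 and 1364 in the RGC-32 KO cells given TGF-β. Every RGC-32 KO library was above every WT library. Averaged over treatments WDFY1 was 3.12-fold higher in RGC-32 KO, a log2 difference (WT minus RGC-32 KO) of -1.64 with a standard error of 0.08 and an adjusted p of 0.000255. SERPINE2 was at 0.03, and MRPL44, which lies between them and overlaps the start of WDFY1 on the other strand, at -0.13 with an adjusted p of 0.464. The reads were unstranded, so reads from the overlap of WDFY1 and MRPL44 cannot be told apart. Of the 11 tested genes whose midpoint lies within 2000 kb of that of SERPINE2, itself included, only PAX3 was called besides WDFY1. The PAX3 difference was -0.75 with an adjusted p of 0.0200 by edgeR. The region and PAX3 were chosen after their values were seen. RGCC lies on another chromosome.

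**Figure D5:**
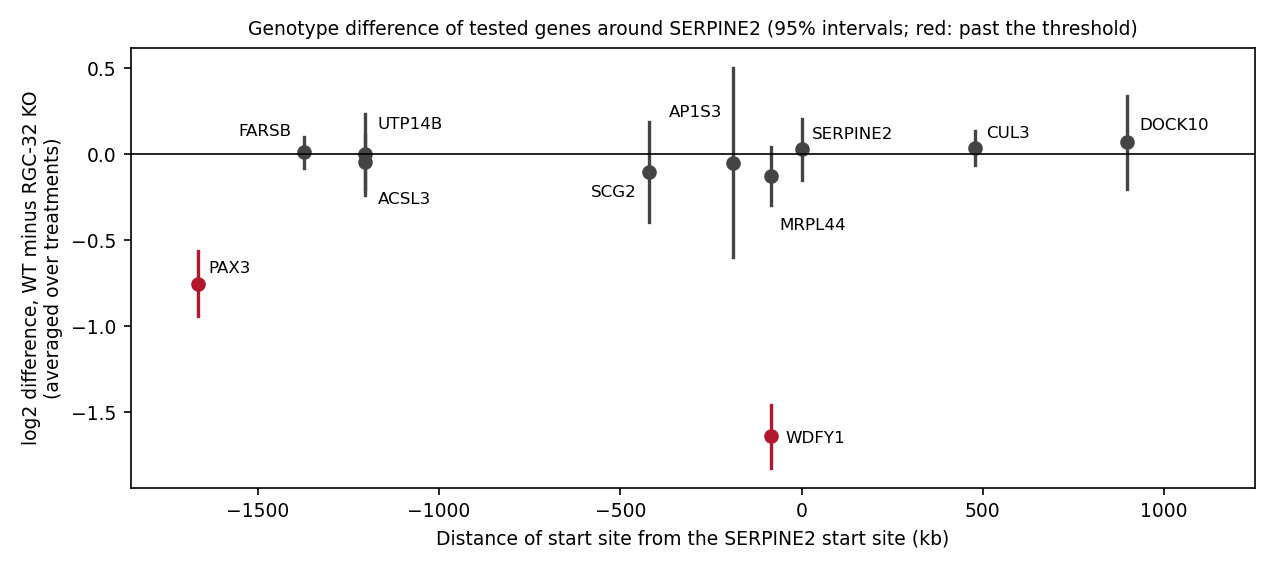
Log2 difference WT minus RGC-32 KO, averaged over treatments (y axis), with 95% intervals, against the distance between start sites in kb (x axis). Shown are the 11 tested genes with midpoints within 2000 kb of that of SERPINE2, itself included. WDFY1 at -1.64 and PAX3 at -0.75 lie below 0, and the intervals of SERPINE2, at 0.03, and of the remaining genes include 0.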

How the data were processed

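RNA was sequenced from 8 libraries of primary mouse astrocytes, 2 in each of 4 groups, from unstranded libraries of total RNA. Reads were aligned by the authors with STAR through the VIPER workflow, and the authors deposited raw counts for 13937 genes. They also deposited Cufflinks values for 18644 genes, taken here as FPKM from the name of the tool and the values. The processing notes name the mm10 build, STAR, Cufflinks and DESeq, with no versions. Deposited tables of the authors' fold changes and p-values for TGF-β against control in each genotype were not used. Groups were taken from the labels. The members and gene lists were chosen with earlier results of these data known.

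Counts were filtered with filterByExpr, normalized by TMM and fitted with the quasi-likelihood test of edgeR 4.0.16 (R 4.3.3) in 1 model of 4 group means. This tested 13509 genes. A gene was called at a Benjamini-Hochberg adjusted p under 0.05 and a log2 fold change of 0.6 or more in either direction. Log2 CPM used a prior count of 2. Library totals ran from 14920561 to 18956038 counts, with a median of 15857266, so a gene with few counts, such as SERPINB2, is measured less precisely than SERPINE2. Alternatives were DESeq2 1.42.0, limma-voom (limma 3.58.1), other normalizations and filters, FPKM with 1 or 0.1 added (genes with FPKM of at least 0.5 in 2 libraries), a test against the fold limit, Bonferroni adjustment, replicate blocks and leaving out each library. The code was tested on simulated data.

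Genes named besides the members were RGCC, up to 10 called genes of the plasminogen lists by smallest adjusted p, called list genes in direct contact with a member, the 3 genes most like each member by Pearson r among genes with a mean of at least 1 CPM, the 2 nearest genes of the count table on each side of each member, and cell type markers. Genes named outside this rule are given as chosen after their values were seen. Positions are from GENCODE M21 on GRCm38, and start-site sequences are from RefSeq on GRCm38.p6, which matched 2 of 4 members. The values of 2 tested genes of the lists are not reported here, although the counts over the lists include them.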

Additional observations from a re-analysis of the deposited data

How the results depend on the processing

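The PLAUR response was called under every alternative run except Bonferroni adjustment, with log2 fold changes of 0.93 to 1.26 in WT and 0.79 to 1.10 in RGC-32 KO. With Bonferroni adjustment the values were 1.25 (adjusted p 0.0668) and 1.10 (adjusted p 0.185), and 0 of 4 members were called in either genotype. On FPKM values PLAU was called in RGC-32 KO, at -0.62 and -0.67 with 1 and 0.1 added, which made 2 of 4 members called; the cause was not tested. DESeq2 called 1 other plasminogen gene between genotypes after TGF-β. Of 432 alternative values of the members' log2 differences, 385 kept direction and call, 2 lost and 2 gained a call, and 43 turned direction, none of them a called value. The PLAT response in RGC-32 KO, 0.0024, was -0.0078 with DESeq2, -0.0039 with limma-voom, -0.0098 on 4 libraries, -0.016 with at least 10 counts in every library, -0.0080 with RLE, -0.079 with upper quartile scaling, -0.0027 with the crossed block, and -0.136 and -0.137 on FPKM values. On FPKM values with 1 and 0.1 added, the SERPINE2 response in WT was -0.0440 and -0.0442, the PLAU difference WT minus RGC-32 KO after TGF-β -0.0094 and -0.0097, the averaged PLAUR difference -0.0053 and -0.0078 (-0.0029 with upper quartile scaling), and the SERPINB2 response in RGC-32 KO -0.00063 and -0.0094.

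With 1 library left out at a time, and a lone sample assumed to vary like the other groups, the TGF-β response in WT ran from -0.26 to 0.018 for PLAT and from -0.45 to 0.19 for PLAU, and in RGC-32 KO from -0.28 to 0.23 for PLAT and from -0.072 to 0.29 for SERPINB2. WT minus RGC-32 KO in control ran from -0.34 to 0.074 for PLAT, -0.20 to 0.063 for PLAUR and -0.050 to 0.20 for SERPINE2, after TGF-β from -0.14 to 0.22 for PLAU and -0.11 to 0.081 for SERPINE2, and averaged from -0.056 to 0.077 for PLAUR and -0.032 to 0.093 for SERPINE2. The interaction ran from -0.34 to 0.15 for PLAT and -0.21 to 0.035 for SERPINE2. The log2 ratio WT minus RGC-32 KO ran from -0.20 to 0.18 for PLAU to PLAT and from -0.48 to 0.15 for PLAU to PLAUR.

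Upper quartile scaling moved the median of all genes by -0.09 in WT and -0.08 in RGC-32 KO, and called 857 of 1912 genes higher in WT and 747 of 1642 in RGC-32 KO, against 1043 of 1806 and 893 of 1559 with TMM. Between genotypes DESeq2 called 13 genes in control, 34 after TGF-β and 44 averaged, where edgeR called 5, 6 and 17. Deviations of same-numbered libraries correlated at 0.491 (control) and 0.253 (TGF-β) between genotypes and at -0.343, -0.348, -0.507 and -0.483 between treatments, so libraries of opposite number deviated together across treatments; the labels do not say what a number marks. With the replicate block, 1616, 1369, 2, 3 and 9 genes were called in the TGF-β comparisons in WT and RGC-32 KO and in the genotype comparisons, and the PLAUR responses were 1.26 and 1.10. Against the fold limit, PDGFRA and SERPING1 in WT and PDGFRB, IGF2R, ITGAV, PDGFRA and LRP1 in RGC-32 KO were not called, nor were SERPINB2, ITGB1 and MRC2 in WT. With Bonferroni adjustment, of the list genes named in the report by the rule, SERPIND1, ITGB3 and LRP1 in WT and SERPIND1 and ITGB3 in RGC-32 KO were called and the others were not. With numbers crossed between treatments, a choice made after seeing the data, 2105, 1852, 10, 36 and 61 were called.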

Other observations

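F2R, which encodes the main thrombin receptor, had a log2 fold change with TGF-β of 0.60 in WT (adjusted p 0.000797) and 0.58 in RGC-32 KO (adjusted p 0.00109). F3, which encodes tissue factor, the initiator of coagulation, stood at 0.53 (adjusted p 0.000768) and 0.58 (adjusted p 0.000693). All 4 values were under the limit of 0.6 before rounding and were not called, although their adjusted p passed. F2RL1, a receptor cut by trypsin-like proteases, was at 0.87 and 0.68 with adjusted p-values of 0.0746 and 0.171. All p-values are from edgeR, and these 3 genes were chosen after their values were seen.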
